A study of Mus musculus with 9 samples.

Results

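Glycolysis and hypoxia response genes form a set of 36 genes, listed by name, that covers glucose uptake, the glycolytic enzymes, lactate and pyruvate handling, the hypoxia-inducible factors and genes commonly induced when oxygen is low. Of the 36, 32 were measured by at least 1 array probe set with a single gene symbol, among 18193 such genes in all. Gpi1, Gapdh, Eno1 and Bnip3l had no probe set of that kind. Each gene was read from its brightest probe set over all arrays.

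The study profiled 9 cultures of C57BL/6 background on Affymetrix mouse arrays, 3 per group. The growth factors FGF and EGF, each at 20 ng/ml, were in the medium of every culture, and the dishes were of a low-attachment kind. Neural stem cells (NSC) of both genotypes derived from brains of Nf1flox/flox pups at postnatal day 1, from around the third ventricle. Wild-type NSC were given a LacZ virus as control and carry the same floxed alleles as the Nf1-null NSC, which were given a Cre virus to remove Nf1. That gene encodes neurofibromin, which restrains Ras. The glioma stem cells were cultured out of optic gliomas that 3-month-old Nf1+/-GFAP CKO mice had developed, and the labels do not spell out that genotype further. They differ from both NSC groups in tissue, age, genotype, tumour origin and absence of virus at once. Independent cultures are mentioned for the NSC, while for the glioma stem cells separate animals are not stated. All p-values measure no more than the spread among these arrays, some of which may be technical.

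Glycolysis turns glucose into pyruvate, which is either burned in mitochondria or reduced to lactate and exported. The hypoxia-inducible factors (HIF) are made all the time, but with oxygen present the prolyl hydroxylases of the Egln family mark their alpha subunits for destruction. When oxygen is short, HIF pairs with Arnt, binds DNA at the letters ACGTG or GCGTG, and raises glucose transporters, most glycolytic enzymes, Vegfa and genes that slow mitochondrial use of pyruvate. The control acts mainly on HIF protein, so the mRNA of Hif1a says little about HIF activity.

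Signals are intensity values on a linear scale, with an array median between 264.7 and 287.4, and differences were taken on log2(signal + 1). Nf1 itself, the targeted gene, had a mean signal of 1020 ± 111 (SD, n = 3) for wild-type NSC, 551 ± 110 (SD, n = 3) for Nf1-null NSC and 591 ± 37.8 (SD, n = 3) for glioma stem cells. The NSC groups did not overlap (log2 -0.90, adjusted p = 0.123), and whether the probe set lies in the deleted part is not known here. Of 11 stem and progenitor markers, Sox2, Vim and Fabp7 were bright on every array, at 28137 or more, while Sox1, Sox9 and Msi1 passed as lower in the tumour-derived cultures than in wild-type NSC. In that comparison Nes was 2.79-fold higher without overlap but did not pass (adjusted p = 0.0558). Vim was also higher without overlap and Sox2 lower without overlap. Against Nf1-null NSC Sox1 passed as 8.22-fold lower in glioma stem cells (adjusted p = 0.0369). Sox9 and Msi1 were also lower and Pax6 higher there without overlap. Between the NSC groups 0 of the 11 passed over all genes. With the replicate number as a block among the brighter genes, a fit described with the pairs, Hes5 passed as 6.94-fold lower in Nf1-null NSC, with overlap (adjusted p = 0.0461). Summed signals of 13 endothelial markers were 1808.5 to 2332 on the wild-type NSC arrays, 5566 to 8501 on those of Nf1-null NSC and 9146 to 11174 on those of glioma stem cells. Most of the sums in Nf1-null NSC came from Plvap and Cd93, with means of 2993 and 1742 against 442 and 202 in wild-type NSC. In glioma stem cells their means were 3724 and 5083, again most of the sums. Between the NSC groups 0 of the 13 passed over all genes. With that block among the brighter genes Plvap (6.44-fold) and Cd93 (10.6-fold) passed as higher in Nf1-null NSC, each without overlap and each with an adjusted p of 0.0141. Plvap and Cd93 also rose and Emcn fell from wild-type NSC to glioma stem cells, while Pecam1, Cdh5, Cldn5, Tek, Tie1, Emcn and Vwf lay below the array median on all arrays. Kdr and Cdh5 were also lower without overlap in that comparison, Kdr by 1.83-fold. From Nf1-null NSC to glioma stem cells Kdr (1.87-fold) and Emcn (6.77-fold) were lower without overlap, and Cd93 was higher without overlap. Summed astrocyte markers, 8 genes that include the member Aldoc, were 223370 to 276836, 108343 to 188704 and 98573 to 129000.0 in the same order of groups. Of these 8, 3 fell from Nf1-null NSC and 4 from wild-type NSC to glioma stem cells, among them Aldh1l1 (90.7-fold and 101-fold) and Aqp4 (33.3-fold and 154-fold). S100b went the other way, 5.49-fold and 3.86-fold higher without overlap, but did not pass over all genes (adjusted p = 0.0809 and 0.0656). With that block S100b passed in both comparisons (adjusted p = 0.00263 and 0.00222). Between the NSC groups 0 of the 8 passed over all genes. Aqp4, 4.62-fold lower in Nf1-null NSC, passed with that block (adjusted p = 0.0319), as did Slc1a2, 2.43-fold lower with overlap (adjusted p = 0.0396). Microglial and macrophage markers were low and alike, at 1061.5 to 1548.5, 1115 to 1498 and 1040.4 to 1562. Summed neuronal markers were 54025 to 63430 for wild-type NSC, 45329 to 47263 for Nf1-null NSC and 40233 to 47827 for glioma stem cells. Summed fibroblast and meningeal markers, of which Pdgfra alone reached the array median, were 9413 to 13791, 1055.0 to 3864 and 3099 to 14662. Neither sum overlapped between the NSC groups. Map2 alone read 48210 to 55848 for wild-type NSC and 42715 to 44339 for Nf1-null NSC. Pdgfra alone read 8946 to 13363 and 457 to 3305, so in wild-type NSC each sum was mostly a single gene. The neuronal markers Dcx (3.15-fold), Gad1 (4.41-fold), Tubb3 and Rbfox3 were also lower in Nf1-null than in wild-type NSC without overlap. Of the neuronal list 0 passed over all genes between the NSC groups. With the block among the brighter genes Dcx and Gad1 passed (adjusted p = 0.0287 and 0.0382). From Nf1-null NSC to glioma stem cells the neuronal marker Tubb3 rose 4.36-fold. Gad1 and Dcx of that list were also higher without overlap, and Rbfox3, Snap25 and Map2 were lower without overlap. Of the pericyte and smooth muscle markers Acta2 fell 3.70-fold. Tagln was also lower without overlap, and Cspg4 and Anpep were higher without overlap. Of the oligodendrocyte markers Mbp was 61.3-fold higher without passing over all genes (adjusted p = 0.0799), at 2601 to 65239 on the glioma stem cell arrays. With the block among the brighter genes it passed (adjusted p = 0.0190). Opalin fell 2.91-fold (adjusted p = 0.0396). From wild-type to Nf1-null NSC Mbp was 6.75-fold lower and Opalin 2.89-fold higher, each without overlap and without passing (adjusted p = 0.339 and 0.0900). The 3'/5' signal ratio of Actb, a measure of RNA integrity, was 1.87 to 1.88, 1.49 to 1.67 and 1.73 to 1.85. The part of these marker and quality differences in the results that follow was not tested. In such bulk cultures, fewer cells of a type and less RNA per cell cannot be told apart.

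No member passed an adjusted p of 0.05 (limma, Benjamini-Hochberg over all 18193 genes) in any of the 3 comparisons. In Nf1-null against wild-type NSC 0 of 32 passed, where 0% of all genes did. In glioma stem cells 0 of 32 passed against Nf1-null NSC, where 1.75% of all genes did, and 0 of 32 against wild-type NSC, where 9.06% did. At an unadjusted p under 0.05 there were 11, 12 and 2 members in these comparisons, beside 16.8%, 16.5% and 26.3% of all genes. Members varied widely between arrays of the same NSC group.

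**Figure D1:**
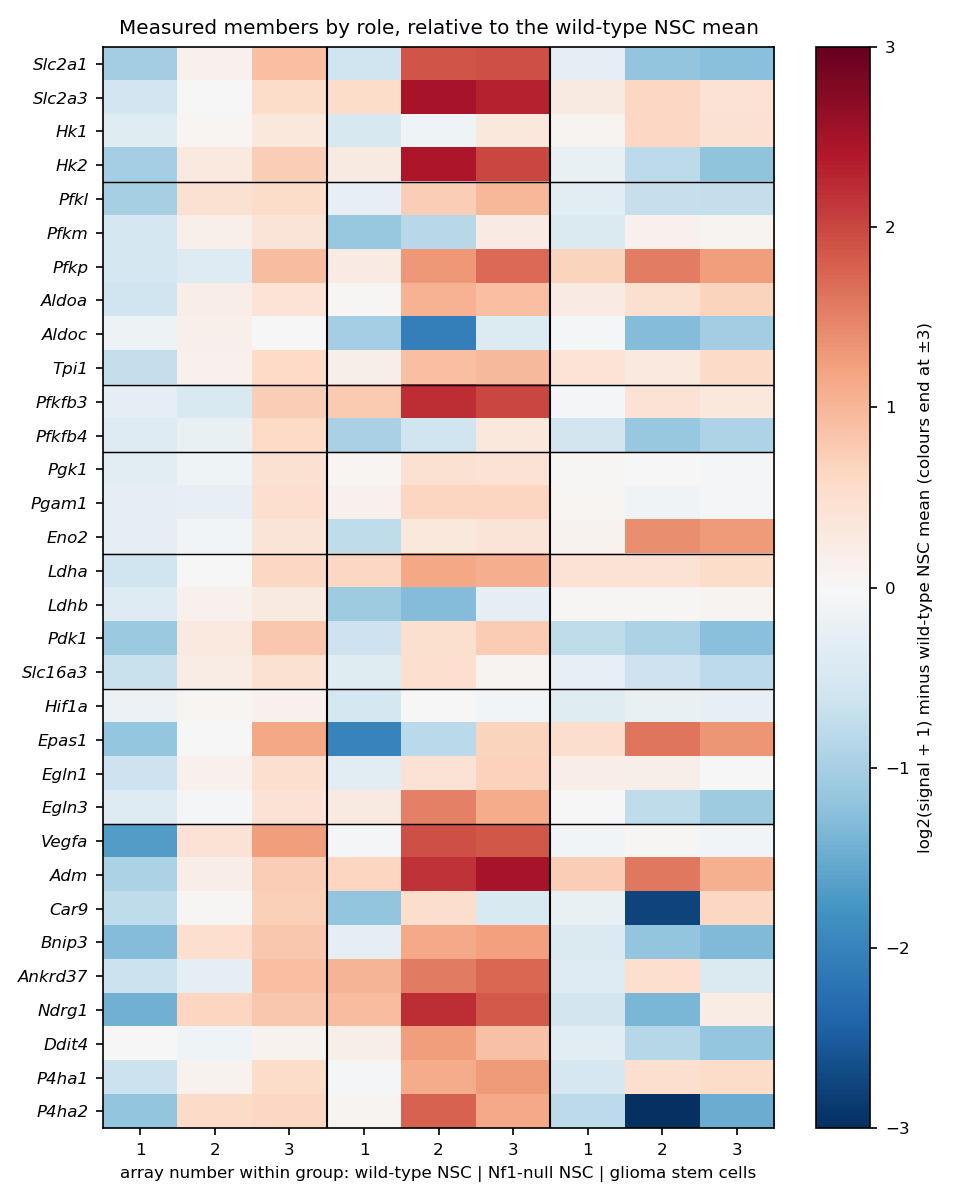
Each row is 1 of the 32 measured members, ordered by role, and each column 1 array; colour gives log2(signal + 1) minus the wild-type NSC mean of that gene. Array 1 is the palest or bluest of its group for most members in both NSC groups, and Nf1-null NSC arrays 2 and 3 are the reddest, with array medians of 0.97 and 0.94.

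The lowest NSC array was nearly always the one numbered 1. Of the 32 members, 30 had their lowest wild-type NSC signal on array 1, against 32.5% of all genes, and 30 had their lowest Nf1-null NSC signal on array 1, against 34.4% of all genes. In glioma stem cells array 1 was the lowest for 12 members, a share of 37.5% beside 38.1% of all genes. These counts were made after the values had been seen. The exceptions in wild-type NSC were Pfkfb3 and Ddit4, and those in Nf1-null NSC were Aldoc and Ldhb. The median member stood at -0.62, 0.11 and 0.57 on the log2 scale in wild-type NSC arrays 1, 2 and 3, relative to the wild-type NSC mean. It stood at -0.06, 0.97 and 0.94 in the Nf1-null NSC arrays, and at -0.07, 0.01 and -0.04 on those of glioma stem cells. Nf1-null NSC array 1 thus lay below wild-type NSC arrays 2 and 3, and the groups overlapped in this summary.

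The members' spread between replicates was wider than that of all genes in both NSC groups. The median SD between replicates on the log2 scale was 0.61 for the members and 0.31 for all genes in wild-type NSC, and the Nf1-null NSC gave 0.67 and 0.35. In glioma stem cells it was 0.31 for both. Vegfa, which encodes the main growth factor for blood vessels, had the widest range in wild-type NSC, with its highest array 7.57 times the lowest. For Nf1-null NSC the same ratio was 3.97 and for glioma stem cells 1.09.

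**Figure D2:**
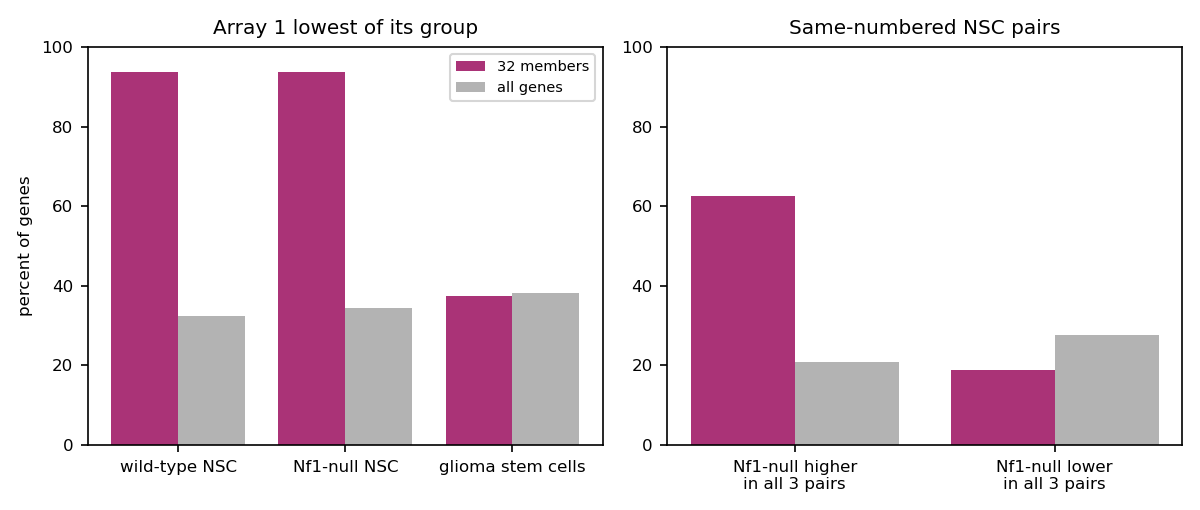
Left, percent of genes whose lowest signal in a group is on array 1, for the 32 members and for all genes. Right, percent of genes higher or lower in Nf1-null NSC in all 3 same-numbered pairs of NSC arrays; members reach 93.8% on the left in both NSC groups and 62.5% among those higher on the right.

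Across genes other than these, same-numbered NSC arrays also deviated together, so the comparison was made within pairs, a pairing that the labels do not state. Of 32 members, 20 were higher in Nf1-null than in wild-type NSC in all 3 pairs, where 20.9% of all genes were. A further 6 were lower in all 3 pairs (Pfkm, Aldoc, Pfkfb4, Ldhb, Hif1a and Epas1), where 27.7% of all genes were. The NSC groups did not overlap at all for 5 higher members (Pfkfb3, Ldha, Ankrd37, Ndrg1 and Ddit4), beside 9.75% of all genes, and for 1 lower member, Aldoc, beside 14.1%. With 1 pair left out at a time, 20 to 23 members were higher in both remaining pairs, beside 27.1% to 30.9% of all genes. The median member difference was 0.67 on the log2 scale, or 1.60-fold, against -0.06 for all genes, and it was 0.33 without wild-type NSC array 1. It ranged from 0.33 to 0.95 with 1 array left out.

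With the replicate number as a block over all genes, 0 of 32 members passed between the NSC groups, beside 0% of all genes. Without the block 0 passed among the brighter genes, beside 4.38% of those, and 0 with a mean-variance trend, beside 1.81% of all genes. Restricted to the 9097 brighter genes, which hold 27 of the members, and with the block in all 9 arrays, 7 members passed beside 11.9% of these genes. Slc2a3, Aldoa, Pfkfb3, Ldha, Adm and P4ha1 were higher in Nf1-null NSC in that fit and Ldhb was lower. That block also places glioma stem cell arrays, from other mice, with the NSC arrays of their number. Adjusted p-values given elsewhere with the block among the brighter genes come from that fit, unless the 6 arrays are named. With the block in the 6 NSC arrays alone 11 of 27 passed beside 8.29% of the genes. A mean-variance trend with the block in all 9 arrays passed the same 7 members, beside 5.35% of all genes. In the fit of the 6 NSC arrays Hk2, Pfkp, Vegfa and Ndrg1 joined those higher, Epas1 was the 1 member lower, and Ldhb did not pass (adjusted p = 0.0563). Brightness was averaged over all 9 arrays, Nf1-null NSC included. Ndrg1 entered the brighter genes only through its high Nf1-null NSC arrays, so its pass there is no support for a difference. Without the NSC arrays numbered 1, Slc2a3, Pfkfb3 and Adm passed among the brighter genes, beside 2.68% of these genes, and 0 members passed among all genes. The settings that combine the block with brighter genes or a trend, or leave out the arrays numbered 1, were chosen after seeing the data.

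Glucose enters brain cells through the transporters encoded by Slc2a1 and Slc2a3 and is trapped by hexokinase, of which Hk1 is the housekeeping and Hk2 the inducible form. Slc2a3 signal was 2339, 3519 and 5114 on wild-type NSC arrays 1, 2 and 3, against 5077, 19312 and 17356 on the Nf1-null NSC arrays, and 4220, 5340 and 4677 on those of glioma stem cells. The Nf1-null NSC array was 2.17-fold, 5.49-fold and 3.39-fold higher within pairs, while its array 1 fell inside the wild-type NSC range. The mean difference was 1.78 on the log2 scale (SE 0.52, adjusted p = 0.187), and with the block among the brighter genes the adjusted p was 0.0243. Slc2a1 signal was 3772, 8492 and 14344 on the wild-type NSC arrays, 5101, 28347 and 29468 on those of Nf1-null NSC and 6304, 3420 and 3260.0 on those of glioma stem cells. The highest 2 of the 9 values were thus Nf1-null NSC arrays 2 and 3, and array 1 of that group was close to the glioma stem cells.

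Hk2 signal was 681, 1710 and 2306 on the wild-type NSC arrays, 1677, 7440 and 5536 on those of Nf1-null NSC and 1190.3, 800.5 and 601 on those of glioma stem cells. All glioma stem cell arrays lay below all Nf1-null NSC arrays, a log2 difference of -2.30 (SE 0.66, adjusted p = 0.143), and within the wild-type NSC range or just under it. Within NSC pairs Hk2 was 2.46-fold, 4.35-fold and 2.40-fold higher in Nf1-null NSC. Hk1 signals overlapped between all groups, at 3636 to 5750 on the wild-type NSC arrays, 3317 to 5806 on those of Nf1-null NSC and 4936 to 7110 on those of glioma stem cells. Relative to Hk1 on the same array, Hk2 was shifted against the wild-type NSC mean by 0.76, 2.54 and 1.67 (log2) across Nf1-null NSC arrays and by -0.31, -1.41 and -1.65 on those of glioma stem cells. Hk2 and Hk1 thus did not differ between groups by the same amount.

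**Figure D3:**
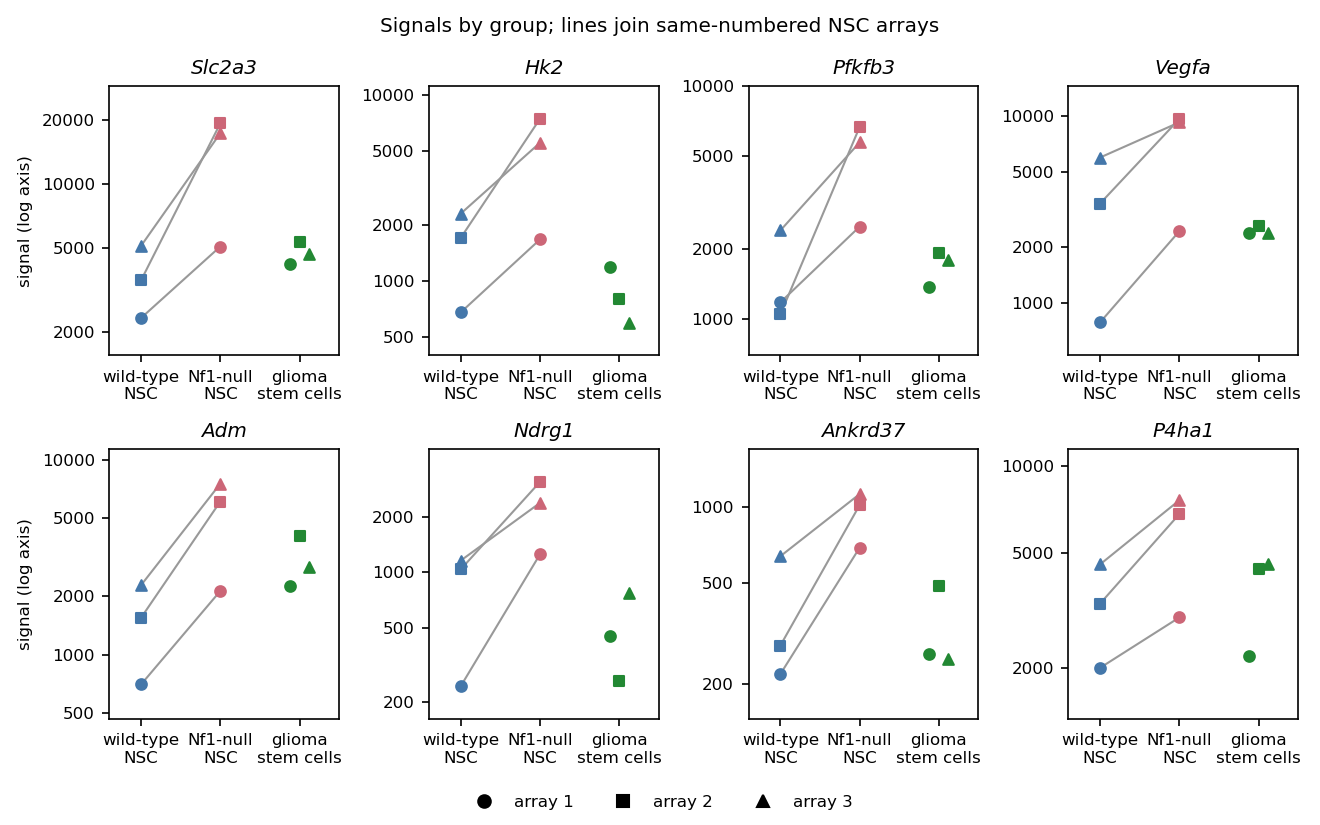
Signal on a log axis for 8 members in the 3 groups, with 1 point per array and grey lines joining NSC arrays of the same number. Every line slopes up from wild-type to Nf1-null NSC, array 1 (circles) starts lowest in 7 panels, with array 2 lowest for Pfkfb3, and glioma stem cells lie below Nf1-null NSC without overlap for Hk2, Pfkfb3, Ndrg1 and Ankrd37.

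The committed step of glycolysis is phosphofructokinase, built from subunits of Pfkl, Pfkm and Pfkp, and its activator is made by the Pfkfb enzymes. Pfkfb3 signal was 1178, 1046 and 2399 on the wild-type NSC arrays, 2492, 6672 and 5731 on those of Nf1-null NSC, and 1375, 1928 and 1794 on those of glioma stem cells. Nf1-null NSC did not overlap with either other group, and array 1 of Nf1-null NSC exceeded the highest wild-type NSC array by little. The difference was 3.18-fold against the wild-type (log2 1.67, SE 0.45, adjusted p = 0.173), and glioma stem cells were 2.71-fold lower than Nf1-null NSC (log2 -1.44, SE 0.45, adjusted p = 0.170). With the block among the brighter genes the adjusted p was 0.0254 and 0.0349.

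Pfkfb4, a relative of Pfkfb3, did not share this pattern. Its signal was 805, 901 and 1605 on the wild-type NSC arrays, 539, 691 and 1317 on those of Nf1-null NSC and 717, 477 and 553 on those of glioma stem cells, so that Nf1-null NSC was lower in each pair and glioma stem cells lay below wild-type NSC without overlap. The latter gap, as a log2 difference of means, was -0.87 (SE 0.40, adjusted p = 0.209). Pfkfb4 was thus among the 6 members that were lower in Nf1-null NSC in each pair.

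The phosphofructokinase subunits differed from each other. Pfkp, which encodes the platelet-type subunit, had signals of 391, 433.5 and 1072 on the wild-type NSC arrays, 668, 1389 and 1833 on those of Nf1-null NSC and 895, 1638 and 1360.4 on those of glioma stem cells. It was the higher on the Nf1-null array of each pair, at 1.71-fold, 3.20-fold and 1.71-fold. From wild-type NSC to glioma stem cells its log2 difference was 1.15 (adjusted p = 0.201). Pfkl, the liver-type subunit, was 598, 1641 and 1750.0 on the wild-type NSC arrays, 1003, 1988 and 2396 on those of Nf1-null NSC and 959, 743 and 723 on those of glioma stem cells. It was higher in Nf1-null NSC in each pair, and glioma stem cells lay below Nf1-null NSC without overlap. Pfkm, the muscle-type subunit, was lower in Nf1-null NSC in each pair, at 0.653, 0.506 and 0.913 of the wild-type signal.

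Aldolase splits the sugar and is encoded by Aldoa, the general form, and Aldoc, the brain form that marks astrocytes. Aldoa signal was 16214, 27989 and 32660.0 on the wild-type NSC arrays, 25239, 50973 and 45894 on those of Nf1-null NSC and 29306, 34431 and 38802 on those of glioma stem cells. Aldoc signal was 50934, 62397 and 56776 on the wild-type NSC arrays, 28081, 13668 and 42225 on those of Nf1-null NSC and 55106, 22855 and 27536 on those of glioma stem cells. The 2 forms went opposite ways between the NSC groups: Aldoa was 1.56-fold, 1.82-fold and 1.41-fold higher within pairs, and Aldoc was lower on all Nf1-null NSC arrays than on all wild-type NSC arrays (log2 -1.16, SE 0.46, adjusted p = 0.269). Glioma stem cell array 1 kept Aldoc near the wild-type NSC level and arrays 2 and 3 did not. Tpi1, which interconverts the products of aldolase, had means of 23551 ± 9888 (SD, n = 3), 36422 ± 9871 (SD, n = 3) and 29690 ± 2955 (SD, n = 3) in wild-type NSC, Nf1-null NSC and glioma stem cells.

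The enzymes of lower glycolysis act on the products of aldolase, and 3 of the 5 listed were measured. Pgk1, phosphoglycerate kinase, had signals of 38054, 43190 and 65142 on the wild-type NSC arrays, 49188, 65259 and 64280 on those of Nf1-null NSC and 48393, 47177 and 45510 on those of glioma stem cells. Pgam1, phosphoglycerate mutase, had means of 19041 ± 6215 (SD, n = 3), 25904 ± 4937 (SD, n = 3) and 18032 ± 1024 (SD, n = 3) in that order of groups. For both genes glioma stem cells lay below Nf1-null NSC without overlap, by 1.26-fold and 1.42-fold (adjusted p = 0.530 and 0.376). Against wild-type NSC the sign of both turned when the arrays were brought to a common median. Eno2, the neuronal enolase, was dim in NSC, at 109.7 to 245.5, and reached 493.8 on a glioma stem cell array.

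Pyruvate is turned into lactate by lactate dehydrogenase, whose Ldha subunit favours lactate formation and whose Ldhb subunit favours the reverse. Ldha signal was 12794, 19401 and 29833 on the wild-type NSC arrays, 29883, 43724 and 41632 on those of Nf1-null NSC and 26152, 26202 and 28476 on those of glioma stem cells. Nf1-null NSC lay above wild-type NSC without overlap, although array 1 of the former and array 3 of the latter were nearly equal. Ldhb signal was 24404, 34655 and 38113 on the wild-type NSC arrays, 15250, 12922 and 25892 on those of Nf1-null NSC and 32696, 32376 and 33427 on those of glioma stem cells. Glioma stem cells lay above Nf1-null NSC in Ldhb without overlap and inside the wild-type NSC range.

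The lactate dehydrogenase subunits thus went opposite ways in each NSC pair, Ldha at 2.34-fold, 2.25-fold and 1.40-fold of the wild-type signal and Ldhb at 0.625, 0.373 and 0.679 of it. For Ldha the log2 difference was 0.96 (SE 0.31, adjusted p = 0.201), and 0.0347 was its adjusted p with the block among the brighter genes. For Ldhb it was -0.89 (SE 0.29, adjusted p = 0.201), with 0.0434 for that adjusted p. Ldha relative to Ldhb was shifted against the wild-type NSC mean by 1.68, 2.47 and 1.39 (log2) across Nf1-null NSC arrays and by 0.39, 0.40 and 0.48 on those of glioma stem cells. The wild-type NSC arrays themselves lay between -0.22 and 0.35, below every array of the other groups, though glioma stem cells by a small margin. This pair was singled out after its values were seen.

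**Figure D4:**
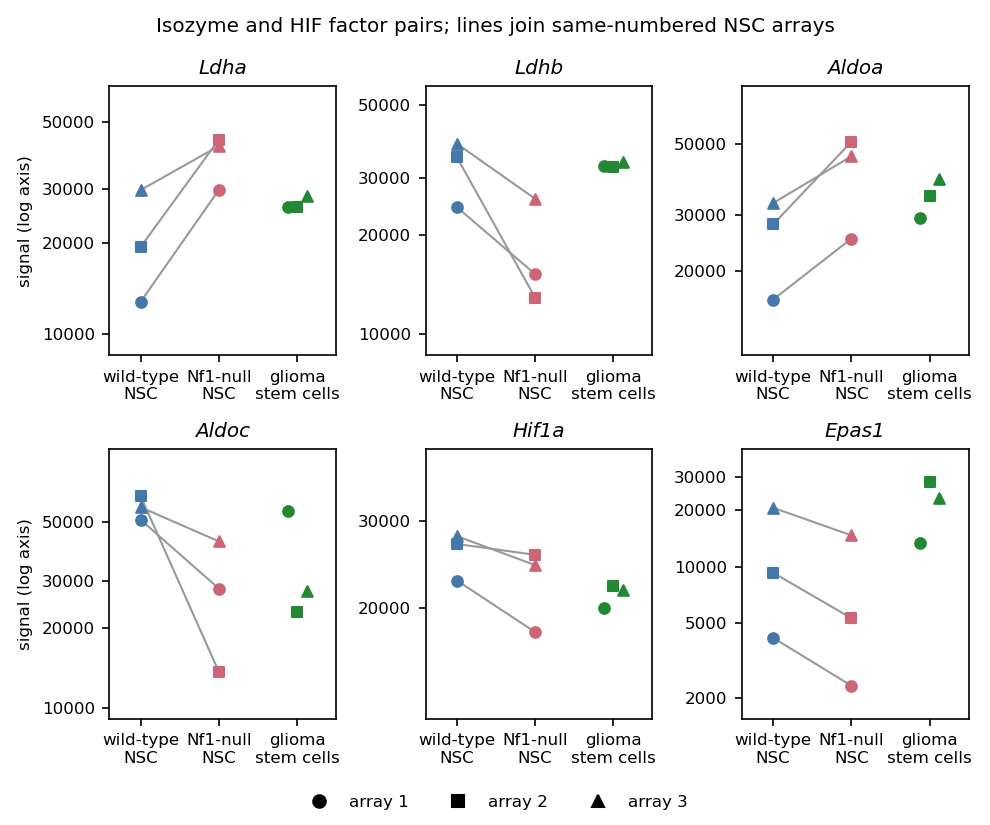
Signal on a log axis for Ldha and Ldhb, Aldoa and Aldoc, and Hif1a and Epas1, with 1 point per array and grey lines joining NSC arrays of the same number. Ldha and Aldoa slope up between the NSC groups while Ldhb, Aldoc, Hif1a and Epas1 slope down in each pair.

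Pdk1 encodes a kinase that shuts pyruvate out of mitochondria. Its signal was 1991, 5279 and 7522 on the wild-type NSC arrays and 2772, 5955 and 7234 on those of Nf1-null NSC, a log2 difference of 0.20. Its 3 other probe sets gave 0.73, 0.67 and 0.48, so the size of this difference depended on the probe set. In glioma stem cells it was 2536, 2224 and 1813, below all Nf1-null NSC arrays (log2 -1.18, SE 0.54, adjusted p = 0.332). Without the NSC arrays numbered 1, Pdk1 passed between wild-type NSC and glioma stem cells over all genes (log2 -1.54, adjusted p = 0.0473), beside 2.90% of all genes. Slc16a3, a lactate exporter, was dim throughout, at 132.8 to 325.2.

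Of the HIF genes, Hif1a was bright and even, with means of 25916 ± 2786 (SD, n = 3), 22660 ± 4185 (SD, n = 3) and 21333 ± 1183 (SD, n = 3) in wild-type NSC, Nf1-null NSC and glioma stem cells. Glioma stem cells lay below wild-type NSC without overlap by 1.21-fold (adjusted p = 0.385). Epas1, which encodes the HIF-2 alpha subunit, varied far more. Its signal was 4180, 9279 and 20584 on the wild-type NSC arrays, 2325, 5318 and 14668 on those of Nf1-null NSC and 13322, 28041 and 23120 on those of glioma stem cells. Array 1 was lowest in every group and the groups overlapped. Within NSC pairs the Nf1-null array was at 0.556, 0.573 and 0.713 of the wild-type signal, the opposite direction to most HIF targets. With the block in the 6 NSC arrays and the brighter genes this gave an adjusted p of 0.0441. With the block in all 9 arrays Epas1 also passed in glioma stem cells, at 1.86 on the log2 scale over Nf1-null NSC (adjusted p = 0.0239) and 1.14 over wild-type NSC (adjusted p = 0.0435); without the block it passed in neither. Glioma stem cells come from other mice, and their numbers are not taken to pair with the NSC. The correlations of their deviations with those of same-numbered arrays were 0.24, 0.05 and 0.20 for wild-type NSC and 0.30, 0.12 and 0.11 for Nf1-null NSC.

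The prolyl hydroxylase genes are themselves HIF targets. Egln3 signal was 1261, 1589 and 2202 on the wild-type NSC arrays, 1987, 4672 and 3525 on those of Nf1-null NSC and 1654, 973 and 786 on those of glioma stem cells. Glioma stem cells lay below Nf1-null NSC without overlap (log2 -1.56, SE 0.41, adjusted p = 0.117). That difference passed among the brighter genes (adjusted p = 0.0405, beside 6.67% of these genes) and with a mean-variance trend (adjusted p = 0.0403, beside 4.05% of all genes). Egln1, which sets the baseline of oxygen sensing, was flatter, with means of 8369 ± 3062 (SD, n = 3), 9999.8 ± 3357 (SD, n = 3) and 8646 ± 697 (SD, n = 3).

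The remaining hypoxia-induced genes encode secreted factors, mitophagy receptors, enzymes and stress regulators, and 8 of the 9 measured were higher in Nf1-null NSC in all 3 pairs. Their median difference was 0.99 on the log2 scale over wild-type NSC, and -1.53 for glioma stem cells minus Nf1-null NSC, with all 9 negative. Vegfa signal was 792, 3408 and 5996 on the wild-type NSC arrays, 2425, 9623 and 9236 on those of Nf1-null NSC and 2382, 2597 and 2378.5 on those of glioma stem cells. It was 3.06-fold, 2.82-fold and 1.54-fold higher within pairs, yet Nf1-null NSC array 1 lay below wild-type NSC arrays 2 and 3. The log2 difference of 1.24 (SE 0.80, adjusted p = 0.473) passed with the block in the 6 NSC arrays and the brighter genes (adjusted p = 0.0434).

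Adm, which encodes the vasodilator peptide adrenomedullin, was higher in every NSC pair by similar folds. Its signal was 702, 1544 and 2269 on the wild-type NSC arrays, 2119, 6097 and 7531 on those of Nf1-null NSC and 2239, 4042 and 2808 on those of glioma stem cells. The folds within pairs were 3.01, 3.95 and 3.32. Its mean difference was 1.77 on the log2 scale (SE 0.59, adjusted p = 0.207), and with the block among the brighter genes its adjusted p was 0.0185, the smallest of the members. P4ha1, a collagen prolyl hydroxylase, was higher within pairs at 1.49-fold, 2.04-fold and 1.67-fold, from signals of 1998, 3331 and 4552 on the wild-type NSC arrays to 2983, 6794 and 7584 on those of Nf1-null NSC, with 2188, 4405 and 4565 on those of glioma stem cells. With the block among the brighter genes its adjusted p was 0.0208. Its relative P4ha2 was 140, 478 and 490.4 on the wild-type NSC arrays, 337, 1100.1 and 703 on those of Nf1-null NSC and 185, 30.9 and 113 on those of glioma stem cells, where it lay under the array median.

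Ndrg1, a stress-responsive differentiation gene, had signals of 242, 1038 and 1158 on the wild-type NSC arrays, 1252, 3086 and 2376 on those of Nf1-null NSC and 452, 257.5 and 773 on those of glioma stem cells. Nf1-null NSC lay above both other groups without overlap, by 3.15-fold against the wild-type (log2 1.66, SE 0.69, adjusted p = 0.288) and 4.67-fold over glioma stem cells (log2 -2.22, SE 0.69, adjusted p = 0.170). Ankrd37, a HIF target of little known function, showed the same order, at 220, 285 and 640.2 on the wild-type NSC arrays, 692, 1018 and 1125 on those of Nf1-null NSC and 264, 488 and 252 on those of glioma stem cells. Ddit4, an inhibitor of mTORC1, was the member with the least spread in wild-type NSC, at 9788, 8969 and 10548, against 11083, 23271 and 17971 on those of Nf1-null NSC and 7718, 5362 and 4336 on those of glioma stem cells. No 2 of the 3 groups overlapped for Ddit4. Bnip3, a mitophagy receptor, was 5446, 19165 and 23516 on the wild-type NSC arrays, 11067, 29676 and 31818 on those of Nf1-null NSC and 9962, 5909 and 5388 on those of glioma stem cells. Car9, the carbonic anhydrase often used as a hypoxia marker, stayed below the array median on all arrays, at 17.4 to 208.8.

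Promoter windows of the members were searched for the core letters bound by HIF, ACGTG and GCGTG on both strands, in 250 bases before to 50 bases after each RefSeq start (GRCm38.p6). Windows were found for 32 of the 36 member genes, all but Epas1, Slc2a3, Ndrg1 and Bnip3l. Of the 32, 29 had at least 1 match, against 46.7% of all 27025 genes with a window. Per window the shares were 82.2% of 45 for members and 43.8% of 32851 for all. The members' windows also held more CG dinucleotides, with a median of 20 against 7, and both cores contain one. The palindrome CACGTG, which is also the core of sites for Myc-type factors, holds ACGTG on both strands and so counts as 2 matches; it was in 11.1% of member windows and 7.15% of all.

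Windows are shown for 6 of the 7 members that passed between the NSC groups with the block in all 9 arrays among the brighter genes, the window with most matches for each gene, on the strand of the gene, 5′ to 3′. Capitals mark the matches, which read CACGT or CACGC where they lie on the opposite strand. They set the 5 genes that were higher in Nf1-null NSC beside Ldhb, which was lower. No window was found for Slc2a3.
Ldha: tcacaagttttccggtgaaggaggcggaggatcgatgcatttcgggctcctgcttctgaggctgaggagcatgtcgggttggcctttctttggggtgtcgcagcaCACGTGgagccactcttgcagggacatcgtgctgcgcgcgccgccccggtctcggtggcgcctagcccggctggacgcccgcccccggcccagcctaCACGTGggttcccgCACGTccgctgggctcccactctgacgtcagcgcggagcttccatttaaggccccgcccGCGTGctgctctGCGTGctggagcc
Pfkfb3: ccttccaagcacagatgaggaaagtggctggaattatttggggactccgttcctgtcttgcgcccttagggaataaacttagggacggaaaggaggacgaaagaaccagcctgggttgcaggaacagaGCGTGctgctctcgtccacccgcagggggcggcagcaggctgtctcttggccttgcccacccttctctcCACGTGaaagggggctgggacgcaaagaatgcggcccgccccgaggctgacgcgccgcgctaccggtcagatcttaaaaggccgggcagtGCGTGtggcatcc
P4ha1: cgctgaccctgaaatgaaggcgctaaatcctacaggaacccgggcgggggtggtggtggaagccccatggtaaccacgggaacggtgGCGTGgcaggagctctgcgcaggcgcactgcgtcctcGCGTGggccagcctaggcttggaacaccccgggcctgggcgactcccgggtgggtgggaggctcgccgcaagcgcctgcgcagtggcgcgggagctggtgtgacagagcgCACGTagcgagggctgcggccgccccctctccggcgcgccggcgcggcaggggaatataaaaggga
Adm: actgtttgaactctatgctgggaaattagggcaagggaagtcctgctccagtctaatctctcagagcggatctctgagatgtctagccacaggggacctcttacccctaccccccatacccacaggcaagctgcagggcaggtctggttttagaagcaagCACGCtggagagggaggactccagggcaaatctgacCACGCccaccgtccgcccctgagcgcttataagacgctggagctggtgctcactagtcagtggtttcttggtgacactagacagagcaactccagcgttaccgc
Aldoa: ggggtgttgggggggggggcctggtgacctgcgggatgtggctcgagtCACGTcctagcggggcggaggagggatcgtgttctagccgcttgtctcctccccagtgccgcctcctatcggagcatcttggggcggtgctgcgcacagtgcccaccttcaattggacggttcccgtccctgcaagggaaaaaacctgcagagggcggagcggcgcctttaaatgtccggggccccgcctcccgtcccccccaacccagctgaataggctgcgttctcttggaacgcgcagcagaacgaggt
Ldhb: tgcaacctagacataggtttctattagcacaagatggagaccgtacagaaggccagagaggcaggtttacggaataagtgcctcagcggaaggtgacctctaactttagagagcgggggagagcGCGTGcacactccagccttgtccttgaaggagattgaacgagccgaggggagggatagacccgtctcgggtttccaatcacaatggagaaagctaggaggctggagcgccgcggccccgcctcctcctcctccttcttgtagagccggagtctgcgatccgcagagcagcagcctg
The Ldha window (chr7:46845554-46845853, plus strand) held 7 matches, 5 of ACGTG and 2 of GCGTG, the most of any member. The Ldhb window (chr6:142507908-142508207, minus strand) held 1, of GCGTG. Those of Pfkfb3 (chr2:11502041-11502340, minus strand), P4ha1 (chr10:59323046-59323345, plus strand), Adm (chr7:110627407-110627706, plus strand) and Aldoa (chr7:126799129-126799428, minus strand) held 4, 3, 2 and 1. Both directions were thus found among windows with a single match. A match is a description of the letters and not a measured site.

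Glioma stem cells were compared with both NSC groups to see where tumour-derived cells stand for these genes. Against Nf1-null NSC, 25 of 32 members were negative, with a median of -0.55 on the log2 scale beside -0.04 for all genes, and -0.83 without Nf1-null NSC array 1. The groups did not overlap for 13 lower members, where 12.7% of all genes were lower without overlap, and for 1 higher member, Ldhb, where 9.24% were higher. Those lower were Hk2, Pfkl, Pfkfb3, Pgk1, Pgam1, Ldha, Pdk1, Egln3, Bnip3, Ankrd37, Ndrg1, Ddit4 and P4ha2. Ddit4 came closest to passing, at 2.96-fold lower (log2 -1.56, SE 0.31, adjusted p = 0.0609). It passed without glioma stem cell array 1 (log2 -1.79, adjusted p = 0.0359, beside 3.96% of all genes) and among the brighter genes (adjusted p = 0.0160). It was also the 1 member that passed without the dimmest 25% of genes, beside 3.93% of those tested, and with a pseudocount of 16, beside 2.13% of all genes.

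The block over all genes passed 0 members in this comparison, beside 1.06% of all genes. In this comparison the block pairs cultures of different mice. With the block among the brighter genes 8 members passed, beside 10.4% of those: Epas1 and Ldhb as higher, and Slc2a3, Hk2, Pfkfb3, Ndrg1, Ddit4 and P4ha1 as lower. The trend with the block passed the same 8 and Egln3, beside 6.23% of all genes. With the block in the 6 arrays compared and the brighter genes 1 passed, Pfkfb3, beside 3.55%. Without the NSC arrays numbered 1, 11 members passed as lower among the brighter genes, beside 3.62% of those: Slc2a1, Slc2a3, Hk2, Pfkl, Pfkfb3, Pdk1, Egln3, Vegfa, Bnip3, Ndrg1 and Ddit4. Of these, Slc2a1, Pfkl, Pdk1, Vegfa and Bnip3 passed in no other setting tried for this comparison. Ndrg1 entered the brighter genes only through its Nf1-null NSC arrays, so its passes among them are no support for a difference. Its pass with the trend and the block was over all genes.

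Against wild-type NSC the members as a whole were level. Of 32, 13 were positive and 19 negative, with a median of -0.06 on the log2 scale beside -0.09 for all genes. Without wild-type NSC array 1 the median was -0.36 and without wild-type NSC array 3 it was 0.19, so its sign rested on single arrays. No member was higher without overlap, where 13.9% of all genes were, and Pfkfb4, Hif1a and Ddit4 were lower without overlap, where 20.9% of all genes were. The 3 comparisons share arrays and are no separate evidence of each other. Among the brighter genes 0 of 27 passed against wild-type NSC, beside 27.2% of those. With a mean-variance trend 0 of 32 passed, beside 14.7% of all genes. With the block over all genes 0 passed, beside 8.44%. With the block among the brighter genes, which pairs cultures of different mice, Pfkp, Adm and Epas1 were higher, beside 33.1% of those genes, and the same 3 passed with the trend and the block, beside 18.5% of all genes. With the block in the 6 arrays compared and the brighter genes Pfkp and Adm were higher and Ddit4 lower, beside 27.9%. Without the NSC arrays numbered 1, Slc2a1, Hk2, Pfkl, Pdk1, Vegfa and Bnip3 passed as lower among the brighter genes, beside 18.8% of those.

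**Figure D5:**
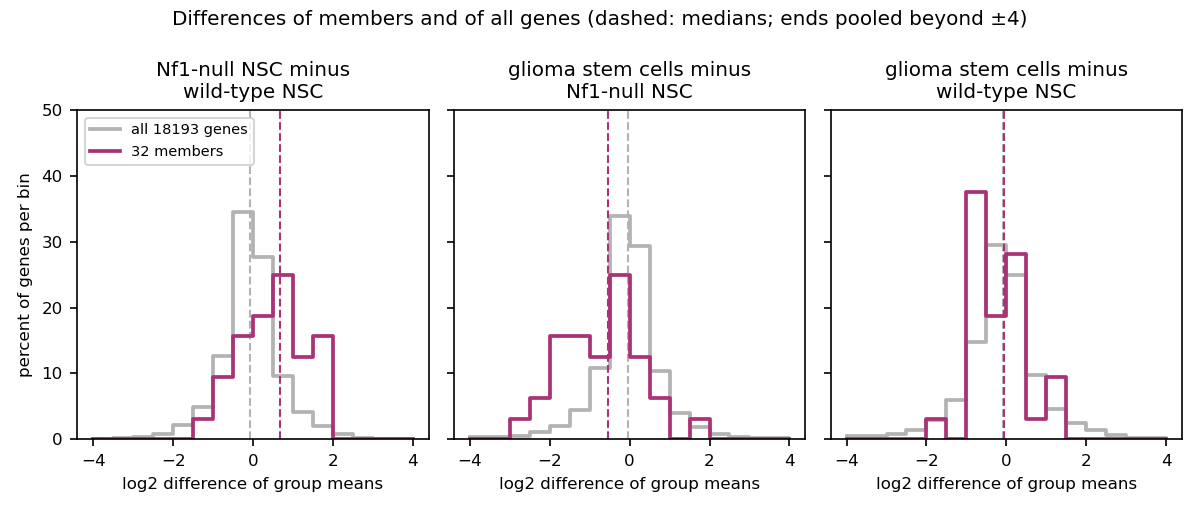
Percent of genes per bin of 0.5 on the log2 scale in the difference of group means, for the 32 members and all 18193 genes, with dashed lines at the medians. Members are shifted up between the NSC groups (median 0.67), down in glioma stem cells against Nf1-null NSC (-0.55) and centred near all genes against wild-type NSC (-0.06).

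Other genes of these pathways, 101 in number, of which 94 were measured, were listed together with the members. Between the NSC groups 0 of 94 passed, 44 of them were positive and their median was -0.05 on the log2 scale, beside 0.67 for the members. The list of other glycolysis genes had a median of -0.16 with 11 of 32 positive, and that of other HIF pathway components -0.10 with 5 of 15. The pentose phosphate branch had -0.06 with 3 of 7 positive, and further hypoxia-induced genes had 0.28 with 25 of 40. In glioma stem cells 2 fell against Nf1-null NSC, and 11 fell and 1 rose against wild-type NSC, which is 12.8% beside 9.06% of all genes. Most of those that fell, 8 of 11, were from the list of 40 further hypoxia-induced genes. Cxcr4, a chemokine receptor, fell 9.23-fold against Nf1-null NSC (adjusted p = 0.0100) and 7.22-fold against wild-type NSC (adjusted p = 0.00873), from signals of 2159 to 3010.1 on the wild-type NSC arrays to 263 to 621.0 on those of glioma stem cells. Mxi1, a Myc antagonist, fell 3.12-fold against wild-type NSC (adjusted p = 0.0228), and Ak4, a mitochondrial adenylate kinase, 3.48-fold (adjusted p = 0.0292). Narf fell against both NSC groups, by 2.13-fold (adjusted p = 0.0491) and 1.99-fold (adjusted p = 0.0299).

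Angptl4, a secreted lipase inhibitor, also fell against wild-type NSC, but its signals of 12.7 to 44.4 on those of glioma stem cells were near the bottom of the scale. Kdm3a, a histone demethylase, Ppp1r3c, which promotes glycogen storage, and Wsb1 fell 1.64-fold, 2.44-fold and 2.01-fold. Among HIF pathway components Arnt, the partner of the alpha subunits, fell 1.57-fold against wild-type NSC (adjusted p = 0.0315), with signals of 1711, 1874 and 1995 on the wild-type NSC arrays and 1232, 1137 and 1172 on those of glioma stem cells. Eloc, a subunit of the ubiquitin ligase that destroys HIF alpha, rose 1.62-fold (adjusted p = 0.0430). The other glycolysis genes that fell were Eno3, the muscle enolase, by 1.92-fold, and the glucose transporter gene Slc2a12 by 4.02-fold (adjusted p = 0.0300). None of the 7 measured genes of the pentose phosphate branch passed in any comparison.

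Several probe sets of a gene mostly pointed the same way. For 20 members with more than 1 probe set, 36 of 39 further probe sets had the sign of the brightest between the NSC groups. The exceptions were 2 of Hif1a and 1 of Epas1. Between wild-type NSC and glioma stem cells 32 of the 39 had that sign. Sizes could still differ. The other P4ha1 probe set gave -0.06 against -0.60 for glioma stem cells minus Nf1-null NSC, and 0.92 against 0.18 for glioma stem cells minus wild-type NSC. The other, dim Pfkfb3 probe set gave 0.14 against 1.67 between the NSC groups. Gapdh was not tested because its probe sets carry several symbols or serve as controls. Of its 3 control probe sets, the one at the 5' end read 25841, 39298 and 49680 on the wild-type NSC arrays, 40413, 66048 and 60834 on those of Nf1-null NSC and 40591, 40934 and 50048 on those of glioma stem cells. In all 3 control probe sets Gapdh, the enzyme between Tpi1 and Pgk1, had array 1 lowest in both NSC groups and was higher on the Nf1-null array of each pair. Among glioma stem cell arrays, array 1 was lowest by the 5' probe set and array 2 by the other two.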

How the data were processed

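Per the labels' protocols, 100 ng RNA of each culture was labelled with biotin and hybridised. The deposited values are probe set intensity on a linear scale, and how the authors summarised the probes is not given in the sources consulted. Leaving out 2% of probe sets at either end, all arrays have a mean of 1499, and such scaling removes differences in total RNA.

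Of 45101 probe sets, 64 were controls, 34945 had 1 symbol, 932 several and 9160 none. Values became log2(value + 1), which compresses dim genes. All arrays entered 1 limma 3.58.1 (R 4.3.3) model of 3 group means, with 6 residual and 1.63 prior degrees of freedom, over 18193 genes. Tests were two-sided with Benjamini-Hochberg adjustment at 0.05. Errors of differences are moderated standard errors. The number of arrays limits the precision. The brighter genes are the 9097 whose log2 signal averages 9.27 or more over all 9 arrays, so a gene can enter through a single group.

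NSC arrays that share a number deviated together from their group means, with correlations of 0.64, 0.24 and 0.59 across the brighter genes and 0.64, 0.24 and 0.58 without the members. All exceed 0.1, so the numbers were taken to pair the NSC. Same-numbered Nf1-null NSC and glioma stem cells, which come from other mice, gave 0.30, 0.12 and 0.11 and also exceed it. The limit thus does not set true pairs apart, and the pairing remains an assumption. The pairing comes from these data, as the labels do not state it.

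The members and lists were chosen with earlier results of these data known. By the rule for named genes, every array's value is given for members with groups that do not overlap or a mean shift of at least 1 in all pairs, largest first where there are over 20. Pfkm, Epas1, Aldoa and P4ha1, outside that rule, were detailed after their values were seen. Pgk1 was detailed out of that order, ahead of Pgam1, which is given as means. Their log2 differences from Nf1-null NSC to glioma stem cells were -0.33 and -0.50. Other pathway genes were named where they passed.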

Additional observations from a re-analysis of the deposited data

How the results depend on the processing

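In Nf1-null against wild-type NSC, 0 members passed with the other scalings, filters, probe set summary, pseudocount or trend tried singly, with any 1 array left out, or with the replicate block in all 9 arrays or in the 6 compared. With settings chosen after seeing the data, 7 passed with the brighter genes or the mean-variance trend and the replicate block in all 9 arrays, 11 with the brighter genes and the block in the 6 arrays, and 3 with the brighter genes and no NSC arrays numbered 1. In glioma stem cells against Nf1-null NSC 1 passed without the dimmest 25% of genes and with a pseudocount of 16, 2 among the brighter genes and with the trend, and 0 to 1 with 1 array left out. There 8 passed with the brighter genes and 9 with the trend, each with the block in all 9 arrays, 1 with the brighter genes and the block in the 6 arrays, and 11 with the brighter genes and no NSC arrays numbered 1. Against wild-type NSC 3 passed with the brighter genes or the trend and the block in all 9 arrays (Pfkp, Adm and Epas1), 3 with the brighter genes and the block in the 6 arrays (Pfkp, Adm and Ddit4), 1 without the NSC arrays numbered 1, and 6 without them among the brighter genes. The count higher in all 3 pairs was 20 to 22 under the scalings, probe set summary and pseudocount tried. For Vegfa, glioma stem cells minus wild-type NSC was -0.05 and turned to 0.023 when arrays were brought to a common median, 0.30 when probe sets were averaged, and 0.17 and 0.58 without wild-type NSC array 2 or 3. It was -0.88 to 0.58 with arrays left out, and the cause was not tested. Shifting arrays to 1 median also turned the sign of Eno2 between the NSC groups and of Pgk1 and Pgam1 between wild-type NSC and glioma stem cells. The members outside the brighter genes, Eno2, Slc16a3, Car9, Ankrd37 and P4ha2, had no test in those settings. Ndrg1 entered the brighter genes only through its Nf1-null NSC arrays. Between the NSC groups it counts in the 11 with the block in the 6 arrays. For glioma stem cells against Nf1-null NSC it counts in the 8 with the block and the 11 without the NSC arrays numbered 1.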
